A study of Homo sapiens with 23 samples.

Results

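SNHG1, SNHG3, SNHG5, SNHG6, SNHG7, SNHG8, SNHG12, SNHG15, GAS5 and ZFAS1 are human genes that make long non-coding RNAs and carry small nucleolar RNAs (snoRNAs) in their introns. They were chosen by symbol from the deposited count table, where all 10 were found among 28395 genes, and all 10 passed the filter on low counts that left 16468 genes for testing. RNA was sequenced from 4 multiple myeloma lines, which are malignant plasma cells in culture: H929, MM1S, OPM2 and RPMI-8226. In each line a guide RNA against IRF4, which encodes a transcription factor that plasma cells need, was set against cells labelled EV. The titles do not say whether EV is a guide, and the name EV guide below stands only for that label. All cells, those labelled EV included, had been kept in doxycycline for 48 hours to switch the guide on. There were 3 libraries for each guide in each line, except MM1S with the EV guide, which had 2 (replicates 2 and 3). All IRF4 libraries carry the same guide label, and whether the cells were clones or pools is not given in the sources used here. Nothing in the labels says that replicates were separate cultures, so p-values measure only how far these libraries differ, and that spread may be technical.

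A snoRNA host gene is transcribed whole. Its introns are cut out and trimmed to snoRNAs, which guide the chemical modification of ribosomal and other RNAs in the nucleolus, or take part in cutting the ribosomal RNA precursor. The SNORD class carries a C/D box and guides methylation, and the SNORA class carries an H/ACA box and guides pseudouridylation. What is left of the host is a spliced RNA. Several of these RNAs, GAS5 first among them, start with a run of pyrimidines (a terminal oligopyrimidine tract, also found on messages for ribosomal proteins). They can enter ribosomes and are then removed by nonsense-mediated decay, so that the spliced GAS5 RNA builds up in cells that stop growing or slow translation. Many hosts are also known targets of MYC, a driver of growth and ribosome synthesis.

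By RefSeq coordinates the 10 hosts enclosed 36 annotated snoRNA genes, 34 of which were in the count table. GAS5 (chromosome 1, 173863901 to 173869045, minus strand, GRCh38) enclosed 11 and SNHG1 (chromosome 11, 62851978 to 62855885, minus strand) 9. SNHG12 (chromosome 1, 28578538 to 28582983, minus strand) enclosed 4 and ZFAS1 (chromosome 20, 49278178 to 49289260, plus strand) 3. SNHG3 (chromosome 1, 28505943 to 28510892, plus strand), SNHG5 (chromosome 6, 85677007 to 85678733, minus strand) and SNHG7 (chromosome 9, 136724594 to 136728184, minus strand) enclosed 2 each. SNHG8 (chromosome 4, 118278762 to 118279823, plus strand) and SNHG15 (chromosome 7, 44983023 to 44986696, minus strand) enclosed 1 each. RefSeq lists all of them as long non-coding RNAs.

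Promoter sequences are shown for 6 hosts, because the hosts moved in sets and the start of the RNA is where the pyrimidine tract lies. RefSeq (GRCh38.p14) had promoter entries for 8 of the 10 hosts, SNHG6 and SNHG15 being those without one. Each window below runs 5′ to 3′ on the strand of the gene, from 20 bases before the annotated start through 25 bases from it, and capitals mark the longest pyrimidine run that covers the start or begins within 10 bases after it. The windows are chr11:62855861-62855905 for SNHG1, chr1:28581849-28581893 for SNHG12, chr6:85678709-85678753 for SNHG5, chr20:49278622-49278666 for ZFAS1 and chr1:173869021-173869065 for GAS5. The last line is the stretch of the SNHG7 promoter around its E-box (chr9:136728284-136728323), with the motif in capitals.
SNHG1: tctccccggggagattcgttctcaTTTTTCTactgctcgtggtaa
SNHG12: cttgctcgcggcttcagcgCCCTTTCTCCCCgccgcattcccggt
SNHG5: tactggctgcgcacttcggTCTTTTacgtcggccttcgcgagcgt
ZFAS1: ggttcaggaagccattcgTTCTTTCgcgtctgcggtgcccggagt
GAS5: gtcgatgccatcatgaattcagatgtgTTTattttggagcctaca
SNHG7: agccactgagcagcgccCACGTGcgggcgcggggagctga

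A run of at least 5 pyrimidines covered the start or began within 10 bases after it in 7 of the 8 hosts with an entry, against 31.1% of the 35116 promoters in the table and 73.9% of those of 23 ribosomal protein genes that host snoRNAs. In SNHG1 the run began 4 bases after the start and in SNHG3, which begins with G, 2 bases after it. By the stricter count of a C at the start inside such a run, as in a terminal oligopyrimidine tract, 3 of the 8 hosts matched (SNHG5, SNHG12 and ZFAS1), against 4.07% of all promoters and 56.5% of those of the ribosomal protein genes. The run reached 12 bases in SNHG12. GAS5 was the host without such a run, but its RefSeq start lies 163 bases upstream of the GENCODE start of the same gene, so this window need not hold the start in use. A like limit holds for all 3 strict matches. The start used for ZFAS1 was 49278642, while the RefSeq gene begins at 49278178. For SNHG12 it was 28581873, while the gene, on the minus strand, begins at 28582983. For SNHG5, also on the minus strand, it was 85678733 as in RefSeq, while the GENCODE gene begins at 85678748. The MYC motif CACGTG was searched on both strands of the 300-base promoters. It occurred in 1 of the 8 hosts, SNHG7, at position -122 from the start, and in 7.26% of all promoters. The interferon response motif (3.57% of all promoters) and the composite motif of ETS and IRF factors (2.82%), which end in the same bases and can overlap, were found in 0 of the 8 on either strand. These matches describe the letters of the windows and say nothing of binding.

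The targeted gene itself was read first, in CPM (TMM-normalised counts divided by the library total and scaled to a common size). IRF4 had 579, 773 and 855 CPM in H929 with the IRF4 guide, against 2181, 2219 and 2196 CPM with the EV guide. In MM1S it had 279, 287 and 228 CPM against 724 and 641 CPM, and in RPMI-8226 193, 250 and 187 CPM against 482, 461 and 409 CPM. The groups were apart in these 3 lines. In OPM2 it had 890, 1331 and 897 CPM against 1570 (replicate 1), 2031 and 1319 CPM, so that 1 IRF4-guide library lay just above the lowest EV library. IRF4 fell in each line, by 1.58 ± 0.18 on the log2 scale in H929 (SE, as in every ± on a fold change), 0.66 ± 0.18 in OPM2, 1.10 ± 0.18 in RPMI-8226 and 1.37 ± 0.20 in MM1S. The libraries held 6907390 to 28486960 counts each, and the hosts had 26 to 6824 counts per library. The summed level of 7 plasma cell markers was 1030 to 4865 CPM with the IRF4 guide and 1280 to 6534 CPM with the EV guide. The 11 markers of T, NK and myeloid cells summed to 2.66 to 159 CPM with the IRF4 guide and 0.119 to 15.9 CPM with the EV guide. Of the 9 of these that could be tested, 8 rose in H929, where 32.9% of all genes rose. Of the same 9, 4 rose in OPM2 (23.3%), 3 in RPMI-8226 (19.2%) and 2 in MM1S (19.4%), and 0 fell. The count in MM1S was near that share. In H929 most of the sum was CD3E (99.8 to 119 CPM with the IRF4 guide, against 13.1 to 15.1 CPM), while KLRD1 and CD14 were at 0 in every IRF4-guide library. At 0 in every IRF4-guide library were also CD3D, CD3G, NKG7, KLRD1, CSF1R and S100A8 in MM1S, CD3D and NKG7 in OPM2 and KLRD1 in RPMI-8226. The part of these markers in the results below was not tested. In bulk RNA, fewer cells that express a gene and less RNA per cell cannot be told apart.

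The hosts fell into 2 sets. SNHG1, SNHG15, SNHG3, SNHG12 and SNHG7 were lower with the IRF4 guide on the average of the 4 lines, most of all in H929. GAS5, SNHG8, ZFAS1, SNHG5 and SNHG6 were not called lower on the average or in any line. Under some of the 31 alternative settings 4 of these 5 were called lower in 1 line each: SNHG8 in RPMI-8226 and ZFAS1 in H929 under 5 settings each, SNHG5 in OPM2 under 4 and SNHG6 in H929 under 2. GAS5 and SNHG8 were higher on the average, and 4 of these 5 rose in MM1S. For GAS5 the average of 0.28 was made of 1.18 in MM1S and -0.06, 0.07 and -0.06 in H929, OPM2 and RPMI-8226. For SNHG8 the average of 0.30 was made of 1.05 in MM1S and 0.16, 0.32 and -0.33 in those lines. The sets are drawn from these same tests and describe them. On the average, 5 of the 10 hosts were called lower (adjusted p under 0.05 over all genes; 25.1% of all tested genes were called lower) and 2 higher (32.6% of all tested genes). The hosts' median log2 fold change was -0.08, beside 0.11 for all tested genes.

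In H929, 5 of 10 hosts fell (26.1% of all genes fell) and 0 rose (32.9% of all genes). An unadjusted p under 0.05 in the higher direction was reached by 0 hosts, and DESeq2 called 0 higher. With replicate numbers as a block within each line, 7 fell in H929, ZFAS1 (-0.44, adjusted p = 3.32e-05) and SNHG6 (-0.27, 0.00374) being added. Over all genes that block raised the number lower there from 4295 to 4632. Without the block, the hosts' median log2 fold change in H929 was -0.57, beside 0.10 for all genes. In MM1S, 6 of 10 rose (19.4% of all genes) and 0 fell (15.2%), with a median of 0.63 beside 0.07. SNHG1 came close there at -0.26 (unadjusted p = 0.020, adjusted p = 0.0563), and DESeq2 called it. In OPM2, 4 fell (20.2%) and 1 rose (23.3%), with a median of -0.37 beside 0.03. Same-numbered libraries of OPM2 deviated together. When those numbers entered the fit as a block within each line, 6 fell there, SNHG5 (-0.42, adjusted p = 0.00151) and SNHG12 (-0.43, adjusted p = 0.0443) being added. Of all genes 3850 then fell in OPM2, against 3327 without the block. In RPMI-8226, 4 fell (14.7%) and 0 rose (19.2%), with a median of -0.23 beside 0.04. With the block within each line 5 fell there, SNHG8 (-0.32, adjusted p = 0.0176) being added, while 3069 of all genes fell, against 2425 without it. The split of calls over all genes depends on the scaling: in H929 55.7% of called genes were higher in the counts and 45.6% in the authors' log2 RPKM values, where the median of all genes moved to -0.07. On the average these shares were 56.5% and 46.2%, with a median of -0.03. In OPM2 the median moved to -0.08 in those values. With H929 fitted alone the share was 49.0%. No called host changed direction under any of these.

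**Figure D1:**
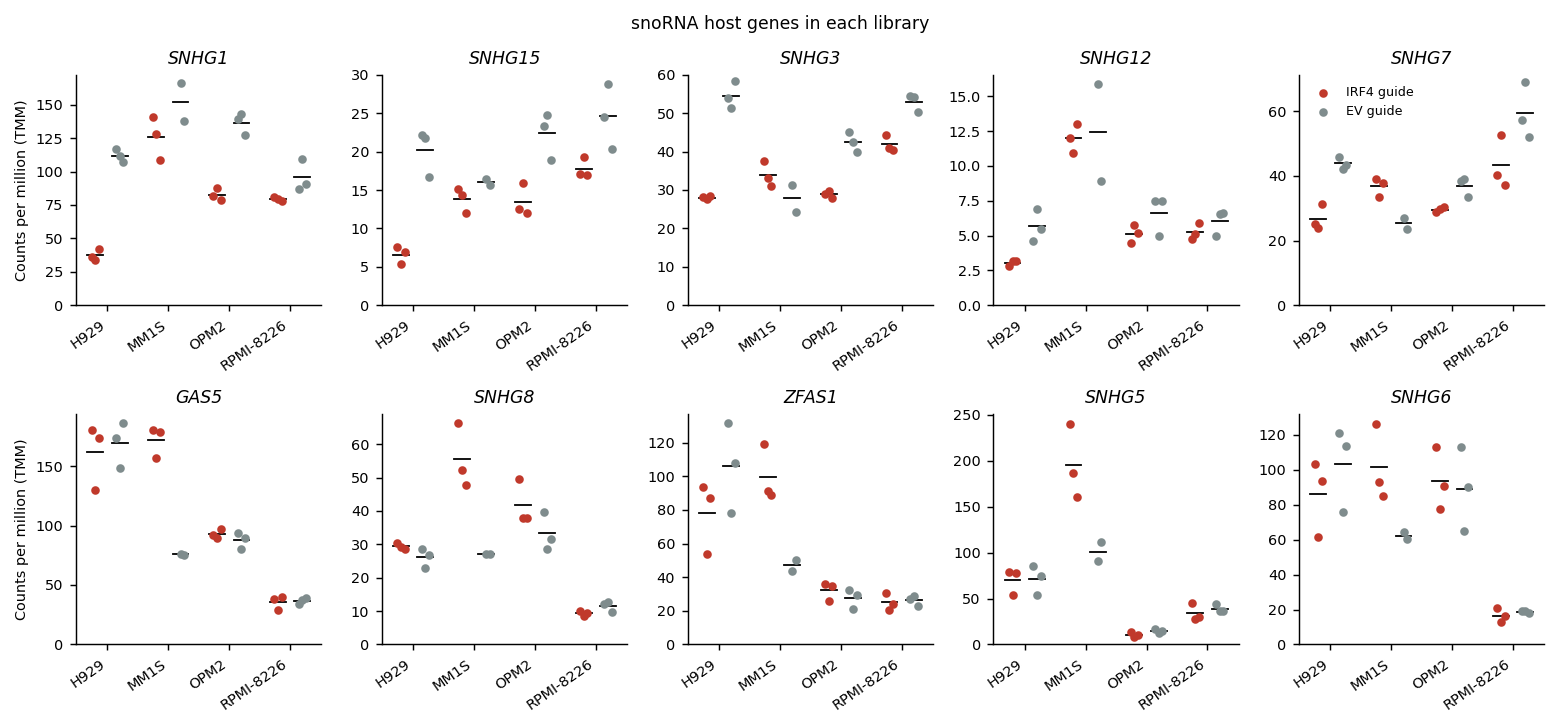
CPM (TMM-normalised, linear axis from 0) of each host in every library, by line, with the IRF4 guide in red left of the EV guide in grey and a bar at each group mean. SNHG1 with the IRF4 guide sits at 33.8 to 42.2 CPM in H929, below all EV libraries of that line, and GAS5 in MM1S at 157 to 181 CPM, above both EV libraries.

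SNHG1 hosts SNORD22 and SNORD25 to SNORD31, and its spliced RNA is often raised in tumours. In H929 it had 36.3, 33.8 and 42.2 CPM with the IRF4 guide, against 117, 112 and 107 CPM with the EV guide. In OPM2 the values were 81.5, 87.9 and 79.0 CPM against 139, 143 and 128 CPM, and in RPMI-8226 81.2, 79.4 and 77.9 CPM against 86.7, 110 and 90.7 CPM. The groups did not overlap in these 3 lines, though the gap was narrow in RPMI-8226. In MM1S SNHG1 had 141, 128 and 109 CPM with the IRF4 guide, against 166 and 138 CPM with the EV guide, and the groups overlapped. The log2 fold changes were -1.57 ± 0.10 in H929 (adjusted p = 5.84e-14), -0.72 ± 0.10 in OPM2 (3.95e-07), -0.27 ± 0.10 in RPMI-8226 (0.0288) and -0.26 ± 0.11 in MM1S (0.0563). Without replicate 2 of the EV guide in RPMI-8226, the change there was -0.16 and no longer called. It also lost its call without replicate 1 (-0.29) or 3 (-0.27) of the IRF4 guide in that line.

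SNHG15, host of SNORA9, changed in nearly the same steps. In H929 it had 7.53, 5.31 and 6.96 CPM with the IRF4 guide, against 22.2, 21.8 and 16.6 CPM with the EV guide. In OPM2 it had 12.5, 15.9 and 12.04 CPM against 23.4, 24.8 and 18.9 CPM, and in RPMI-8226 17.02, 19.2 and 16.9 CPM against 24.6, 28.9 and 20.4 CPM. No IRF4-guide library overlapped the EV libraries in these lines. In MM1S the values were 15.2, 14.4 and 12.1 CPM against 16.4 and 15.6 CPM, lower in each library but by less. The changes were -1.56 ± 0.16 (adjusted p = 9.34e-10), -0.72 ± 0.14 (0.000138), -0.49 ± 0.14 (0.00776) and -0.19 ± 0.18 (0.464, not called). The RPMI-8226 call also ended without replicate 2 of the EV guide (-0.36).

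SNHG3, host of SNORA73A and SNORA73B, snoRNAs with a role in processing the ribosomal RNA precursor, went both ways. It had 28.0, 27.6 and 28.4 CPM with the IRF4 guide in H929, against 53.8, 51.3 and 58.3 CPM with the EV guide. In OPM2 it had 28.8, 29.8 and 27.9 CPM against 45.2, 42.5 and 39.9 CPM, and in RPMI-8226 44.4, 40.9 and 40.5 CPM against 54.4, 54.2 and 50.2 CPM. The groups stood clear of each other in these 3 lines. The falls were -0.96 ± 0.09, -0.56 ± 0.09 and -0.34 ± 0.09 (adjusted p = 3.88e-10, 1.07e-05 and 0.00398). In MM1S SNHG3 had 37.5, 33.0 and 30.9 CPM against 31.4 and 24.3 CPM, and the groups overlapped. The change of 0.29 ± 0.11 barely passed (0.0447). That call was lost under 14 of the 31 alternatives, among them those without replicate 3 of the EV guide (0.12) and without replicate 1 (0.20) or 2 (0.31) of the IRF4 guide in MM1S. Of the exonic bases of SNHG3, 5.92% also belong to RCC1 on the same strand, a regulator of nuclear transport whose counts could share reads. RCC1 fell in MM1S (-0.44 ± 0.11, adjusted p = 0.0019) as in H929 (-1.38 ± 0.10), OPM2 (-0.78 ± 0.10) and RPMI-8226 (-0.50 ± 0.09).

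SNHG7, host of SNORA17A and SNORA17B, likewise fell in 3 lines and rose in MM1S. With the IRF4 guide it had 38.9, 33.6 and 37.7 CPM in MM1S, against 27.1 and 23.5 CPM with the EV guide, with no overlap. In H929 it had 25.2, 23.9 and 31.2 CPM against 45.9, 42.3 and 43.5 CPM. In OPM2 it had 28.7, 29.6 and 30.4 CPM against 38.3, 38.9 and 33.3 CPM. These groups were apart, while in RPMI-8226, with 40.4, 52.6 and 37.3 CPM against 57.3, 69.1 and 52.1 CPM, 1 library overlapped. The changes were 0.54 ± 0.15 in MM1S (adjusted p = 0.00436), -0.71 ± 0.12 in H929 (9.91e-06), -0.31 ± 0.12 in OPM2 (0.0334) and -0.46 ± 0.12 in RPMI-8226 (0.00245). The call in MM1S was lost without replicate 3 of the EV guide (0.44), and that in OPM2 without any 1 of 5 of its 6 libraries (-0.33 to -0.27). An opposite-strand gene, FAM69B (DIPK1B), shares 25.2% of the exonic bases of SNHG7. Whether reads were counted by strand is not given in the sources used here.

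SNHG12, host of SNORA16A, SNORA44, SNORA61 and SNORD99, had the fewest counts. In H929 it had 2.80, 3.14 and 3.14 CPM with the IRF4 guide, against 4.63, 6.88 and 5.45 CPM with the EV guide, a fall of 0.86 ± 0.22 on the log2 scale (adjusted p = 0.00113). Its groups overlapped in the other 3 lines, where no change was called without the block (-0.43 ± 0.19 in OPM2, -0.18 ± 0.19 in RPMI-8226 and -0.06 ± 0.21 in MM1S). The 2 EV libraries of MM1S lay far apart, at 15.9 and 8.93 CPM.

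GAS5, named for its rise in growth-arrested cells, is the host with the most snoRNAs of the 10. In MM1S it had 181, 157 and 179 CPM with the IRF4 guide, against 76.4 and 75.2 CPM with the EV guide. That is a log2 fold change of 1.18 ± 0.13 (2.27-fold, adjusted p = 6.26e-08), and it was called under all 31 alternatives. In the other lines the groups overlapped. GAS5 had 181, 130 and 174 CPM with the IRF4 guide in H929, against 173, 148 and 186 CPM with the EV guide. The 95% intervals of the log2 change were -0.29 to 0.16 in H929, -0.15 to 0.30 in OPM2 and -0.30 to 0.18 in RPMI-8226.

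SNHG8, host of SNORA24, had 66.2, 52.4 and 47.8 CPM in MM1S with the IRF4 guide, against 27.0 and 27.2 CPM with the EV guide, a change of 1.05 ± 0.16 (adjusted p = 3.7e-06). In OPM2 it had 49.7, 37.8 and 38.0 CPM against 39.6, 28.6 and 31.7 CPM. These groups overlapped, and the call (0.32 ± 0.13, adjusted p = 0.0441) was lost under 12 of the 31 alternatives, with 0.17 without replicate 1 of the IRF4 guide and 0.24 and 0.27 without replicates 2 and 3 of the EV guide. In RPMI-8226, where it was lowest, the change was -0.33 ± 0.15 (0.0861, not called).

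ZFAS1 and SNHG5 rose in MM1S too, and SNHG6 was not called there. ZFAS1, host of SNORD12, SNORD12B and SNORD12C, had 119, 91.6 and 88.7 CPM with the IRF4 guide there, against 43.8 and 50.5 CPM with the EV guide (1.09 ± 0.27, adjusted p = 0.00416). SNHG5, host of SNORD50A and SNORD50B, had 240, 187 and 161 CPM against 90.7 and 112 CPM (0.96 ± 0.25, 0.00568). SNHG6 (chromosome 8, 66921690 to 66925541, minus strand), host of SNORD87, had 126, 92.8 and 85.2 CPM against 64.1 and 60.5 CPM (0.72 ± 0.28, 0.0628, not called). The groups of all 3 genes were apart in MM1S, and those in the other 3 lines overlapped. With 3 libraries against 2 in MM1S this says little, and the share of all genes apart there is not given. Without replicate 2 of the EV guide in MM1S, ZFAS1 (0.99) and SNHG5 (0.82) were no longer called there. In H929, OPM2 and RPMI-8226 none of the 3 was called, at -0.44 to 0.19. Between same-numbered libraries ZFAS1 (by -0.54 to -0.30) and SNHG6 (-0.30 to -0.22) were lower in all 3 pairs of H929, and SNHG5 (-0.61 to -0.30) in all 3 of OPM2. With the replicate block within each line, SNHG5 was called lower in OPM2 (-0.42, adjusted p = 0.00151), and ZFAS1 (-0.44, 3.32e-05) and SNHG6 (-0.27, 0.00374) in H929, where 1 pair's deviations did not correlate over 0.1. SNHG6 was then also called in MM1S (0.51, 0.00013). Their SEs in a line, 0.22 to 0.28, were above the 0.11 to 0.16 of GAS5 and SNHG8. In H929 the replicate 2 library was the lowest of its group in all 3 genes with either guide: ZFAS1 had 53.8 CPM against 93.7 and 87.4 CPM in the other IRF4-guide libraries, and 78.5 CPM against 132 and 108 CPM in the other EV ones. Replicate 2 held 8410479 and 8390849 counts, against 22035614 to 27406220 in the other H929 libraries. The smallest EV libraries of OPM2 (8550347) and RPMI-8226 (8974460) were likewise lowest of their groups. In RPMI-8226 with the IRF4 guide the largest (24063200) was lowest. In MM1S the largest (28486960, IRF4 guide replicate 1) was highest in all 3. Others there held 9653222 and 6907390 (IRF4 guide) and 9366370 and 8662035 (EV guide). The part of this was not tested. MCMDC2, on the opposite strand, shares 29.3% of the exonic bases of SNHG6. ZNFX1, which overlaps ZFAS1 on the opposite strand and is a helicase of antiviral defence, rose in all 4 lines, by 0.50 ± 0.09 in H929, 0.78 ± 0.09 in OPM2, 0.35 ± 0.10 in RPMI-8226 and 0.71 ± 0.11 in MM1S.

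**Figure D2:**
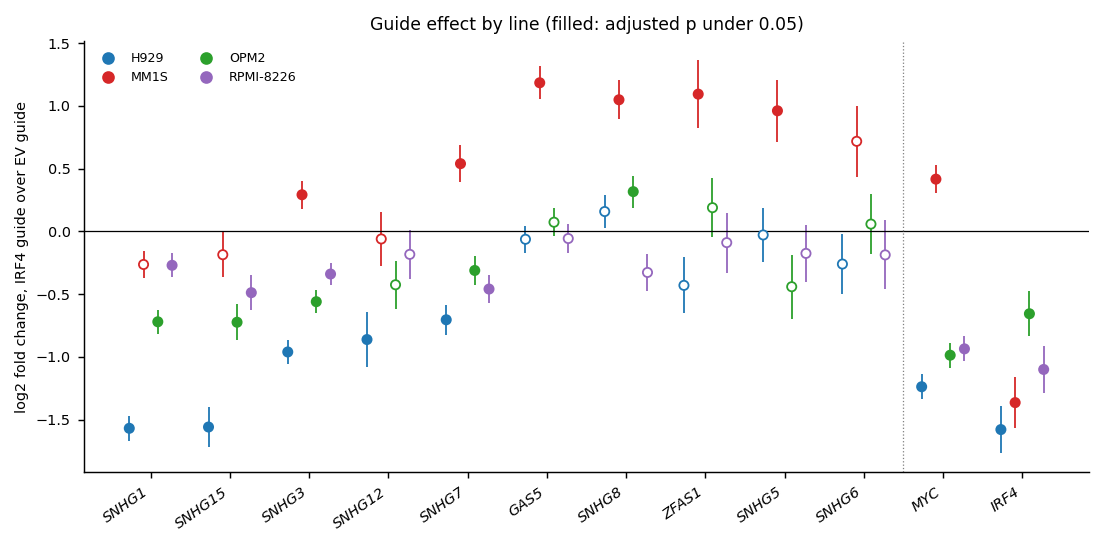
Log2 fold change, IRF4 guide over EV guide (y axis), with its SE for each host, MYC and IRF4, by line; filled points were called at an adjusted p under 0.05. The MM1S points of GAS5, SNHG8, ZFAS1 and SNHG5 lie at 0.96 to 1.18, and the H929 points of SNHG1 and SNHG15 at -1.57 and -1.56.

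The guide effect was tested for a difference between lines. It differed for 8 of the 10 hosts (F test with 3 degrees of freedom), while 48% of all tested genes differed. The exceptions were SNHG12 (adjusted p = 0.110) and SNHG6 (0.143, or 2.05e-05 with the block within each line). Between H929 and MM1S the effect differed for 8 hosts, lower in H929 for each (13.6% of all tested genes were lower). MM1S was above OPM2 for 6 (9.27% of all genes were above) and below it for 0 (9.14%). It was above RPMI-8226 for 6 (10.2%) and below it for 0 (9.93%). H929 was below OPM2 for 3 (12.2%) and below RPMI-8226 for 3 (17.9%). Between OPM2 and RPMI-8226, 1 host was higher in OPM2 (8.57%) and 1 lower (7.45%). GAS5 stood 1.25 ± 0.17 lower in H929 than in MM1S (adjusted p = 2.55e-06), SNHG15 1.37 ± 0.24 lower (6.46e-05) and ZFAS1 1.52 ± 0.35 lower (0.00342), all as differences of log2 fold changes. For SNHG5 and ZFAS1 the F test was lost without replicate 2 of the EV guide in MM1S (adjusted p = 0.105 and 0.0668).

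With the EV guide alone, the level of each of the 10 hosts differed between the lines (F test; 93.1% of all tested genes did). For SNHG12 that call was lost without replicate 2 of the EV guide in MM1S (adjusted p = 0.0634). Per length, on the authors' log2 RPKM scale, the order of the hosts differed from line to line. GAS5 led in H929 (8.02 ± 0.17, SD, n = 3), followed by SNHG6 (7.72 ± 0.34). SNHG5 led in MM1S (7.63 ± 0.21, n = 2), SNHG6 in OPM2 (7.51 ± 0.39) and SNHG1 in RPMI-8226 (6.38 ± 0.17). SNHG12 was the lowest in H929, OPM2 and RPMI-8226 (2.98 to 3.53), and SNHG7 in MM1S (3.22 ± 0.15). Neighbours in these orders often lay within their spread, such as ZFAS1 and SNHG1 in H929 (6.62 ± 0.35 and 6.62 ± 0.06). GAS5 stood above 91.8 to 98.9% of the 16220 genes in those files in the 8 groups, and SNHG12 above 45.2 to 74.2%.

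Between lines, SNHG5 spanned the widest range. It averaged 101 ± 14.7 CPM in MM1S (SD, n = 2), 71.2 ± 16.1 in H929, 38.8 ± 4.30 in RPMI-8226 and 14.6 ± 1.92 in OPM2 with the EV guide (n = 3 each). MM1S and H929, neighbours in this order, were not called different (adjusted p = 0.0901), and the other 5 pairs were. GAS5 ran from 169 ± 19.1 CPM in H929 through OPM2 (87.9 ± 7.10) and MM1S (75.8 ± 0.881), which were not called different (adjusted p = 0.144), to 37.0 ± 2.29 in RPMI-8226. SNHG6 was 2.26 ± 0.26 higher on the log2 scale in OPM2 than in RPMI-8226, SNHG8 1.52 ± 0.14 higher, and ZFAS1 2.00 ± 0.24 higher in H929 than in RPMI-8226. SNHG7 and SNHG3 were lowest in MM1S (SNHG7 at 25.3 ± 2.52 CPM there and 59.5 ± 8.70 CPM in RPMI-8226). DIPK1B, which overlaps SNHG7 on the opposite strand, had 45.8 to 51.4 CPM in RPMI-8226 with the EV guide. In the EV libraries of the other lines it had 1.94 to 8.68 CPM. Its part in the counts of SNHG7 was not tested. For SNHG1 the widest gap, between MM1S and RPMI-8226, was 0.67 ± 0.11. The rise of GAS5 in MM1S brought it to 172 ± 13.1 CPM, beside the 162 ± 27.4 CPM of H929 with the same guide.

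MYC, like SNHG3 and SNHG7, fell in H929, OPM2 and RPMI-8226 and rose in MM1S. In MM1S SNHG1, SNHG15 and SNHG12 stood at -0.26, -0.19 and -0.06 and were not called. For SNHG3 and SNHG1 the calls in MM1S depended on the setting. The rise of SNHG3 there lost its call under 14 of the 31 alternatives, and SNHG1 was called lower there under 16. The rise of SNHG7 in MM1S lost its call under 1 alternative, and its fall in OPM2 under 7. MYC had 162, 187 and 187 CPM in H929 with the IRF4 guide, against 397, 439 and 427 CPM with the EV guide. In MM1S it had 790, 788 and 698 CPM against 586 and 551 CPM. Its change was -1.24 ± 0.10 in H929, -0.99 ± 0.10 in OPM2 and -0.94 ± 0.10 in RPMI-8226, but 0.42 ± 0.11 in MM1S (adjusted p = 0.00418). Over the 23 libraries, after centring log2 CPM on the mean of each line, Pearson r with MYC was 0.67 to 0.91 for SNHG1, SNHG15, SNHG3, SNHG12 and SNHG7 and -0.03 to 0.32 for the other 5. The pairs within the first set had r from 0.59 to 0.97 and those within the second from 0.67 to 0.93, against -0.27 to 0.48 for the 25 pairs across the sets. The points share the guide contrast and the libraries, so that a shared response to the guide raises r. After centring on each of the 8 groups instead, which removes the guide effect, the second set kept r from 0.32 to 0.94 (median 0.74), while the first had -0.09 to 0.70 (median 0.32) and the pairs across the sets -0.48 to 0.51 (median 0.11). These correlations are descriptions, with no test.

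**Figure D3:**
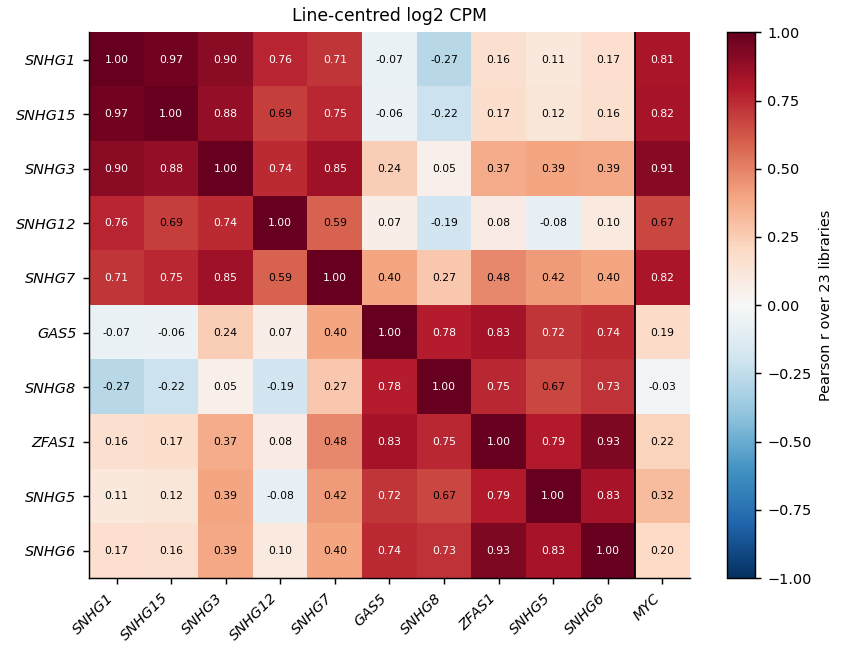
Pearson r over 23 libraries between the hosts (rows and columns) and with MYC (last column), on log2 CPM centred on each line. SNHG1, SNHG15, SNHG3, SNHG12 and SNHG7 form a block with r of 0.59 to 0.97, and the remaining 5 a block with r of 0.67 to 0.93.

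Among 9520 other genes with a mean of at least 10 CPM, those with the highest r to a host were taken on the same line-centred values. For SNHG6 they were RPS23 and RPL34 (r = 0.94 both) and for ZFAS1 RPS6 and RPL23 (0.96 both), all ribosomal protein genes. GAS5 was nearest to SNHG32, another snoRNA host, and RPL10A (0.94 both), and SNHG8 to RPL10 and GATB (0.89 both). In the first set SNHG1 was nearest to WDR75, a factor of small ribosomal subunit assembly, and MTDH (0.98 both), SNHG15 to SLC35F2 and TOMM20 (0.97 both), SNHG3 to GORASP2 and DTWD1 (0.94 both), SNHG7 to MRPL14 and EBPL (0.91 both) and SNHG12 to FNBP4 and MLX (0.85 and 0.84). No ribosomal protein gene of the cytosol was among these 10.

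The snoRNA genes inside the hosts were counted as genes of their own, and 29 of the 34 passed the filter on low counts. Ordinary libraries lose RNAs this short, and reads of a snoRNA cannot be told apart from reads of unspliced host RNA. The RefSeq table gives no strand for them. SNORA17A, SNORA17B and SNORA9, of SNHG7 and SNHG15, had 0 counts in all libraries. Of the 29, 22 fell in H929 (26.1% of all genes fell), 13 in OPM2 (20.2%), 1 in MM1S (15.2%) and 0 in RPMI-8226 (14.7%), and 0 rose in any line. Over all genes 32.9% rose in H929, 23.3% in OPM2, 19.4% in MM1S and 19.2% in RPMI-8226. SEs reached 1.64 for SNORA24 in RPMI-8226 and 1.56 for SNORD12B in MM1S, so some snoRNA genes could hardly be called either way. With DESeq2 the number that fell in OPM2 was 8. Without replicate 1 of the EV guide in OPM2 it was 7. The single call in MM1S, SNORD78 of GAS5 (-1.27), was lost without replicate 2 of the EV guide there, and 2 were called without replicate 3 of the EV guide or replicate 2 of the IRF4 guide. In RPMI-8226 2 were called without replicate 1 of the EV guide, and 1 without replicate 1 or 3 of the IRF4 guide.

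All 8 snoRNA genes of SNHG1 in the table fell in H929 (-1.57 to -0.98) and in OPM2 (-1.01 to -0.75), as SNHG1 did. All 10 of GAS5 fell in H929 (-1.67 to -0.89), where GAS5 itself stood at -0.06. Summed, the GAS5 snoRNA genes had 17.5, 14.96 and 14.4 CPM in H929 with the IRF4 guide, against 34.3, 42.4 and 30.5 CPM with the EV guide. In MM1S the sums were 18.1, 19.1 and 20.6 CPM with the IRF4 guide, against 27.0 and 19.6 CPM with the EV guide, beside the rise of GAS5 there. In OPM2 4 of the 10 fell. That count was 0 without replicate 1 of the EV guide, 1 without replicate 3 of the IRF4 guide, and 2 without replicate 1 of the IRF4 guide or replicate 3 of the EV guide.

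Per 100 counts of GAS5, its snoRNA genes had 9.71, 11.5 and 8.25 counts in H929 with the IRF4 guide, against 19.8, 28.6 and 16.4 with the EV guide. In MM1S they had 10.02, 12.2 and 11.5 against 35.3 and 26.1, and in OPM2 30.4, 39.2 and 26.7 against 45.4, 47.6 and 43.8. The groups did not overlap in these 3 lines. In RPMI-8226 they had 26.1, 43.0 and 35.3 against 34.6, 40.8 and 34.1, and overlapped. This ratio was examined after the counts had been seen, for the 8 hosts with a tested snoRNA gene, by an exact permutation test of the guide within lines on log2 ratios (two-sided, 80000 arrangements; 0.5 added to both counts). For GAS5 the mean change over lines was -0.79 (exact permutation p = 0.000225, or 0.0018 after Benjamini-Hochberg adjustment over the 8 hosts). For ZFAS1 it was -0.76 (exact permutation p = 0.00149, adjusted 0.00595), negative in all 4 lines, but its snoRNA genes had only 2 to 31 counts per library. Both calls held without any 1 library. For SNHG5 it was -0.88 (exact permutation p = 0.0142, adjusted 0.0379), from 1 to 61 counts per library, and 12 of the 23 single-library omissions ended that call, with the value furthest off at -0.73 without replicate 2 of the EV guide in H929. Its changes were 0.18 in H929, -0.48 in OPM2, -1.43 in RPMI-8226 and -1.79 in MM1S. The ratio did not pass for SNHG1 (0.08, adjusted 0.419), SNHG3 (-0.11, 0.576), SNHG12 (0.04, 0.789), SNHG6 (-0.59, 0.106, called without replicate 2 of the IRF4 guide in H929 or in RPMI-8226 at -0.72 and -0.74) and SNHG8 (-0.48, 0.319).

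**Figure D4:**
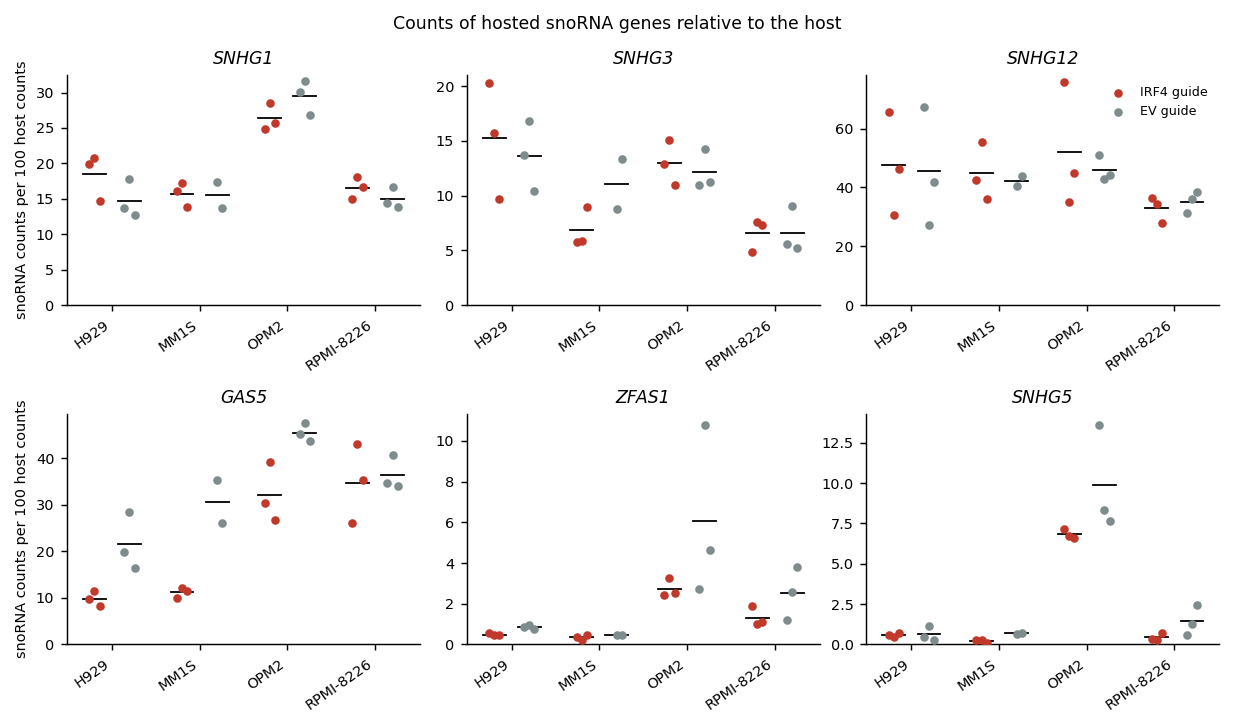
Counts of the snoRNA genes inside a host per 100 counts of the host (linear axes from 0, each panel on its own scale) in every library, by line, with the IRF4 guide in red left of the EV guide in grey and a bar at each group mean. For GAS5 the IRF4-guide points lie below the EV points in H929, MM1S and OPM2, while those of SNHG1 lie between 13.9 and 28.5 beside 12.7 to 31.6.

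Other genes of snoRNA biology were described from lists. Of 13 tested non-coding hosts outside the 10, 5 fell in H929 and 0 rose, 6 rose in MM1S and 0 fell, 3 fell and 1 rose in OPM2, and 2 fell in RPMI-8226 and 0 rose. The shares over all genes were 26.1% lower in H929, 19.4% higher in MM1S, 20.2% lower in OPM2 and 14.7% lower in RPMI-8226, and the counts of lower hosts in OPM2 and RPMI-8226 are near them. Over all genes 32.9% rose in H929, 23.3% in OPM2 and 19.2% in RPMI-8226, and 15.2% fell in MM1S. With the block in OPM2, 4 rose, while 4204 to 4242 of all genes rose by the form of block, against 3829 without. In the order H929, MM1S, OPM2 and RPMI-8226 the median changes without a block were -0.26, 0.42, -0.07 and -0.13. SNHG17 (-1.42 ± 0.16 in H929, -0.71 ± 0.14 in OPM2, -0.99 ± 0.13 in RPMI-8226 and -0.30 ± 0.15 in MM1S) and SNHG16 (-1.14 ± 0.13 in H929) fell in H929. SNHG32 rose in MM1S (1.12 ± 0.11) and stood at -0.06 ± 0.10 in H929, beside 1.18 and -0.06 for GAS5. In the log2 RPKM values 8 of the 13 fell in H929, where 4935 of the 16220 genes with such values fell.

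Of 26 ribosomal protein genes that host snoRNAs, 22 rose in MM1S (19.4% of all genes rose) and 0 fell, with a median of 0.70 beside 0.07 for all genes. RPL13A, whose introns hold several C/D box snoRNAs, stood at 1.34 ± 0.15, and RPL3 at 0.92 ± 0.09. In H929 4 of the 26 fell (26.1% of all genes) and 1 rose (32.9%), and in OPM2 1 fell (20.2%) and 2 rose (23.3%). In RPMI-8226 4 fell and 0 rose (19.2%). The medians in these lines were -0.08, 0.08 and -0.10. The share that fell in RPMI-8226 was near the 14.7% of all genes. With the block in OPM2, 5 rose there, beside 4204 to 4242 of all genes by the form of block, against 3829 without. In the log2 RPKM values 10 rose in OPM2, and in RPMI-8226 the median turned to 0.03 with 1 lower. Of the 16220 genes with such values 2960 rose in OPM2 and 2386 fell in RPMI-8226. Fitted alone, H929 had 9 lower, beside 4674 of all genes, against 4295 in the joint fit. RPL17 was the 1 member called lower on the average (-0.35 ± 0.06), with -0.83 ± 0.10 in H929. Of 24 other protein-coding hosts, 22 fell in H929 (26.1% of all genes), 16 in OPM2 (20.2%), 11 in RPMI-8226 (14.7%) and 12 in MM1S (15.2%). In the same order of lines 1, 2, 1 and 4 rose, beside 32.9%, 23.3%, 19.2% and 19.4% of all genes. HSPA9, a chaperone of mitochondria, fell in all 4 (-0.91 ± 0.07 in H929 and -0.56 ± 0.08 in MM1S).

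Most of the listed proteins that bind and mature snoRNAs fell in H929, OPM2 and RPMI-8226, and fewer were called in MM1S. All 8 core proteins of snoRNA particles fell in H929, OPM2 and RPMI-8226, and 3 of the 8 in MM1S (medians -1.003, -0.70, -0.44 and -0.22). Over all genes 26.1% fell in H929, 20.2% in OPM2, 14.7% in RPMI-8226 and 15.2% in MM1S. In the same order 32.9%, 23.3%, 19.2% and 19.4% rose. The counts of this paragraph stand beside these shares. NOP56 and NOP58, which bind C/D box snoRNAs and are themselves snoRNA hosts, fell in each line (NOP58 by 1.39 ± 0.11 in H929, 0.75 ± 0.10 in OPM2, 0.31 ± 0.10 in RPMI-8226 and 0.65 ± 0.12 in MM1S). The lists share genes: NOP56, NOP58 and DKC1 are listed both as core proteins and as protein-coding hosts. TAF1D is listed both as such a host and in the RNA polymerase I machinery. Of 11 assembly factors, 10 fell in H929, 9 in OPM2, 7 in RPMI-8226 and 6 in MM1S, and 1 rose, in H929. NOLC1, a nucleolar chaperone of these particles, fell by 1.40 ± 0.09 in H929 and 0.36 ± 0.10 in MM1S, and RUVBL1, a helicase of their assembly, by 1.13 ± 0.09 in H929 with -0.11 ± 0.10 in MM1S. Of 11 genes of the RNA polymerase I machinery, which makes ribosomal RNA, 9 fell in H929, 7 in OPM2, 8 in RPMI-8226 and 2 in MM1S, and 3 rose in MM1S and 1 in H929. The counts in MM1S were near the shares over all genes, and with MM1S fitted alone 6 fell there and 0 rose. Of all genes 3208 then fell and 2960 rose, against 2500 and 3193 in the joint fit. POLR1E stood at -1.32 ± 0.09 in H929 and -0.25 ± 0.11 in MM1S, and POLR1B at -1.05 ± 0.08 and -0.17 ± 0.09. Of 18 factors of nonsense-mediated decay, the pathway that removes spliced GAS5, 12 fell in H929, 8 in OPM2, 6 in RPMI-8226 and 4 in MM1S, and 1, 2, 2 and 1 rose in the same lines. EIF4A3, of the exon junction complex, fell in each line (-0.96 ± 0.08 in H929, -0.69 ± 0.09 in MM1S), while SMG6, the nuclease of the pathway, rose in H929 (1.49 ± 0.10), OPM2 (0.62 ± 0.10) and RPMI-8226 (0.37 ± 0.11) and stood at 0.25 ± 0.12 in MM1S.

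**Figure D5:**
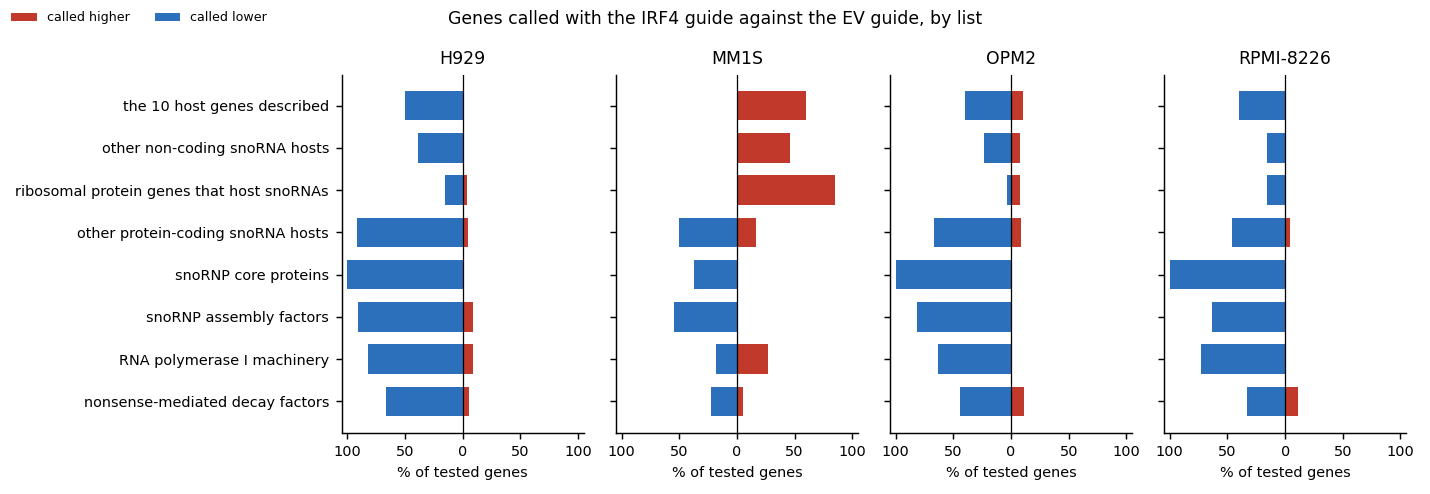
Share of the tested genes of each list called higher (red, right of 0) and lower (blue, left of 0) with the IRF4 guide against the EV guide, by line, in percent. In MM1S the host genes and the ribosomal protein hosts (22 of 26) extend to the right, while the core proteins of snoRNA particles extend to the left in every line (8, 3, 8 and 8 of 8).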

How the data were processed

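The authors deposited raw counts per gene for all 23 libraries, and log2 RPKM values per library. Subread, featureCounts and limma were used with GRCh38 (hg38), per the submitters' processing notes. Versions, settings and strandedness are not given in the sources used here. Genes were named by the table's symbols and Entrez IDs. Libraries were grouped by line and guide from the labels. Counts were filtered with filterByExpr, scaled by TMM factors (0.914 to 1.08) and fitted as 8 group means with edgeR 4.0.16 (R 4.3.3), robust quasi-likelihood. Contrasts were the IRF4 guide minus the EV guide in each line, their equal-weight average, F tests between lines, and pairs of lines. Benjamini-Hochberg adjustment ran over the 16468 tested genes of a contrast, and calls were made under 0.05. SE was taken as the size of a change divided by the root of its F. The code was tested on simulated data with known changes. Alternatives were other size factors, other filters, DESeq2 1.42.0, limma 3.58.1 on log2 RPKM, each line alone, replicate blocks and single-library omissions.

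The hosts and all lists were chosen with earlier results of these data known. Besides the hosts, IRF4 and MYC, named genes were taken from up to 4 called members of each list with the smallest adjusted p on the average, the 2 genes most like each host (those of SNHG5 are not reported here), genes that overlap a host, and snoRNA genes inside one by RefSeq coordinates. Genes without a symbol, 490 in number, stayed in the fit. Replicate numbers were taken to pair the libraries in OPM2 only, where the deviations of all 3 same-numbered pairs correlated over 0.1 (0.14 to 0.18), and there calls that a block changes are given beside the result. The cut of 0.1 was a choice: same-numbered pairs stood at 0.08 to 0.16 in H929 and 0.09 to 0.11 in RPMI-8226. Hosts that the block within each line adds to those called lower are given for these lines too. Annotation came from GENCODE and RefSeq (GRCh38.p14). SnoRNA strand was not checked. The ratio of snoRNA to host counts and the list counts under other scalings were chosen after values had been seen.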

Additional observations from a re-analysis of the deposited data

Results flagged for a closer look

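The difference of the guide effect between the 4 lines (F test in edgeR, adjusted over all genes) passed for 8 hosts. The adjusted p was 1.26e-08 for SNHG1, 4.41e-07 for SNHG3, 1.67e-06 for GAS5, 2.66e-05 for SNHG7, 4.45e-05 for SNHG8, 8.24e-05 for SNHG15, 0.0102 for ZFAS1 and 0.0139 for SNHG5. It was 0.0317 for IRF4 and 2.85e-09 for MYC.

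Among the listed genes named above, the same test gave 3.09e-07 for SNHG32, 0.00044 for SNHG16 and 0.000731 for SNHG17. It gave 4.22e-06 for RPL3, 8.77e-05 for RPL13A, 0.000217 for RPL17 and 0.000984 for HSPA9. For the particle proteins and assembly factors it was 8.76e-06 for NOP58, 0.00133 for NOP56, 1.68e-06 for NOLC1 and 2.74e-06 for RUVBL1. It was 1.46e-06 for POLR1E, 1.49e-06 for POLR1B, 1.78e-07 for SMG6 and 0.000954 for EIF4A3.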

How the results depend on the processing

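Over 31 alternatives, no called value changed sign; among values for single hosts (lines, average and both F tests), 2033 stayed on their side of the threshold, 53 passed anew and 44 no longer did. The count of hosts called higher in OPM2 was 0 rather than 1 with each line fitted alone and with limma on log2 RPKM, and 0 to 1 with 1 library left out. In MM1S 1 host rather than 0 was called lower, SNHG1 (-0.36 to -0.26), with DESeq2 size factors, the DESeq2 test, each line alone, limma, a mean of at least 1 CPM, no filter, and either replicate block; it was 0 to 1 with 1 library left out. In RPMI-8226 the hosts called lower numbered 2 to 5 with 1 library left out, 2 without replicate 2 of the EV guide. SnoRNA genes called lower numbered 7 in MM1S and 4 in RPMI-8226 with limma, 8 in OPM2 with DESeq2, and 1 in RPMI-8226 with a replicate block within each line; those of GAS5 numbered 10 on the average with limma, and 1 with DESeq2 and 2 without a filter in OPM2. With 1 library left out these counts ran from 0 to 2 in MM1S, 0 to 2 in RPMI-8226 and 7 to 13 in OPM2, and for GAS5 from 0 to 4 in OPM2 and 4 to 6 on the average. The cause was not tested.

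Of 11 pairs of same-numbered libraries, 6 had correlated deviations over 0.1 (0.03 to 0.18 in all), all 3 only in OPM2, so the numbers were taken as pairs in that line alone. Each IRF4-guide library with a same-numbered EV library correlated best with it, and so did each EV library except replicate 2 of MM1S, a hint from the data and not the design. With a replicate block shared by the lines, SNHG6 in MM1S (0.55), ZFAS1 in H929 (-0.43), SNHG5 (-0.42) and SNHG12 (-0.45) in OPM2 and SNHG8 in RPMI-8226 (-0.33) became called, and the hosts called lower numbered 6 in H929, 6 in OPM2 and 5 in RPMI-8226. With the block within each line they numbered 7, 6 and 5. Over all genes the numbers lower in these lines were 4295, 3327 and 2425 without a block. They were 4567, 3772 and 2938 with the shared block, and 4632, 3850 and 3069 with the block within each line. Low counts of the snoRNA genes (0 in some libraries) limit what can be seen of them.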
